A study of Mus musculus with 2 samples.

Results

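Mir206, Mir133b, Mir1a-1 and Mir133a-1 are 4 genes for microRNAs (miRNAs) of striated muscle. They were taken by name from the tables of the mouse embryonic limb, which list 1973 miRNA genes, after gene identifiers had been matched to symbols. The limbs came from embryos of the strain B6NCrl (Mus musculus) at embryonic day 15.5, with no treatment or genetic change named, and small RNA below 30 nt was sequenced from total RNA. The series held 1 group with 2 biological replicates, a pool of 78 embryos as replicate 1 and a pool of 62 embryos as replicate 2, each with male and female embryos together. With no second tissue, stage or treatment, the values below are levels in this tissue and differences between the 2 pools. Whole limbs were used, so muscle was mixed with skin, cartilage, vessels, nerve and connective tissue. In such a mixture fewer muscle cells and less miRNA per muscle cell cannot be told apart.

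A miRNA is cut from a hairpin precursor and represses messenger RNAs that pair with its seed, the bases 2 to 8 from its 5′ end. The muscle miRNAs are transcribed in pairs, with a gene of the miR-1 and miR-206 family next to a gene of the miR-133 family, and myogenic factors such as MyoD and myogenin drive them as myoblasts differentiate. The miR-1 and miR-206 family is known to promote myoblast differentiation. The miR-133 family is known to act on proliferation and on splicing and transcription factors such as SRF. The pair of Mir206 with Mir133b is known from skeletal muscle, whereas the pairs of miR-1 with miR-133a are also known from the heart.

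The mature sequences are shown because a read is counted for a gene only where its bases match no other place. They are RefSeq's on the GRCm38.p6 build, written 5′ to 3′ with the seed in capitals. The table of 1738 mature sequences gave both arms of Mir206 and Mir133b and the 5p arm of Mir1a-1.
miR-206-3p: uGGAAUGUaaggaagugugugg
miR-206-5p: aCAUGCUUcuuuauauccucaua
miR-133b-3p: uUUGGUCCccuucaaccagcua
miR-133b-5p: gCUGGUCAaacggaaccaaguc
miR-1a-1-5p: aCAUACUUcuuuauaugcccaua
The seed GGAAUGU of miR-206-3p is also that of miR-1, and a match to it is how both act on common targets. In the table used, miR-6349 and miR-6382 had the same seed, and their genes Mir6349 and Mir6382 had 0 sense counts in each replicate, so Mir206 was the counted gene with this seed among them. No other mature sequence in that table had the seed UUGGUCC of miR-133b-3p. The table gave no arm of Mir133a-1, so this does not cover miR-133a, and the seed cannot be called particular to miR-133b. The 5p arms of Mir206 and Mir1a-1 were identical at 20 of 23 bases, and counted from 1 at the 5′ end of miR-206-5p the differences were G5A, C17G and U19C. The first of these lies in the seed, so the 5p arms have different seeds.

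The hairpins of the pair on chromosome 1 are shown with both mature arms in capitals, because the deposited counts are per gene and do not separate the arms.
Mir206 precursor: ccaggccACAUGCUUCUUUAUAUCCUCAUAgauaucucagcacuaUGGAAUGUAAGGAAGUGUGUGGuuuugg
Mir133b precursor: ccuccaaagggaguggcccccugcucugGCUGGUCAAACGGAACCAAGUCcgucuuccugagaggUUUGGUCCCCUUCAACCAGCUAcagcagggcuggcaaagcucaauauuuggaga
A count of Mir206 can thus be either arm of the hairpin, and the same holds for Mir133b. Mature arms are of nearly equal length, so counts of different miRNA genes were compared without division by length.

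By counts, Mir206 led the 4 genes in the day 15.5 limb by a wide margin. Levels are given as CPM, the sense counts of a gene per 1000000 sense miRNA counts of its library. Mir206 had 47115 sense counts in replicate 1 and 24658 in replicate 2, equal to 11050.4 and 4787 CPM and a mean of 7919 ± 4429 CPM (SD, n = 2). As a share of the sense counts, replicate 1 stood at 1.11% (95% Wilson limits 1.10 and 1.12) and replicate 2 at 0.479% (limits 0.473 and 0.485). The limits of the replicates did not overlap, and the pools differed by far more than counting error. The intervals cover the counting error of reads only, and no molecular identifiers are named for these reads.

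Mir133b had 359 sense counts in replicate 1 and 216 in replicate 2, which is 84.2 and 41.9 CPM and a mean of 63.1 ± 29.9 CPM (SD, n = 2). Its Wilson 95% interval was 75.9 to 93.4 CPM in replicate 1 and 36.7 to 47.9 CPM in replicate 2, and again these did not overlap. Mir1a-1, of the family that is abundant in mature skeletal muscle and heart, had 1 sense count in each replicate, or 0.235 and 0.194 CPM. Mir133a-1 was listed at 0 in both replicates, which allows up to 3 counts, a limit of 0.704 CPM for replicate 1 and of 0.582 CPM for replicate 2. None of the 4 genes had an antisense count in either replicate. Of the 4, only Mir206 and Mir133b had at least 10 sense counts in both replicates, the minimum for a gene to be called detected. The other two were too low for a comparison of the replicates.

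**Figure D1:**
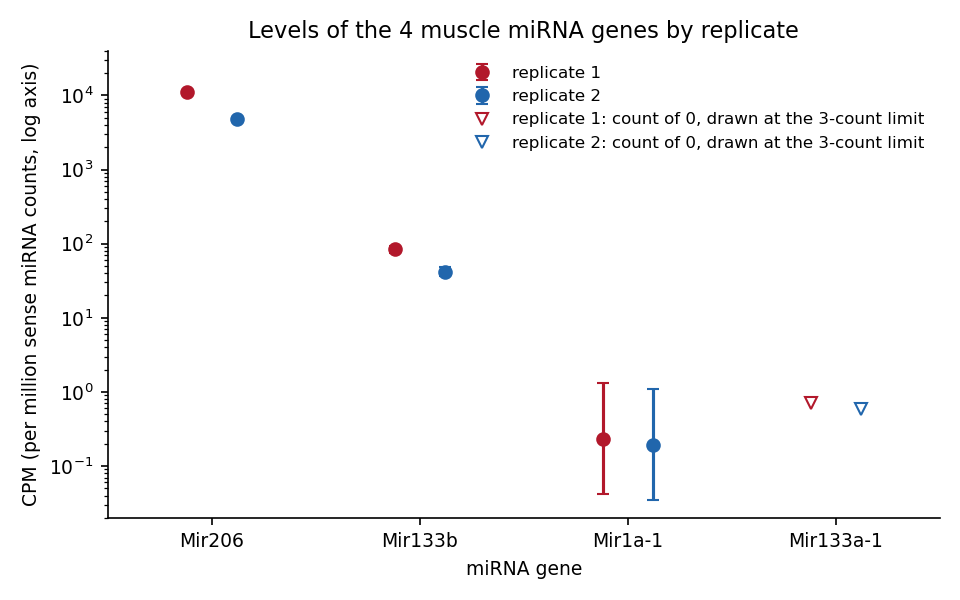
Level of each gene in CPM on a log axis, replicate 1 in red and replicate 2 in blue, with Wilson 95% intervals as bars. Mir206 lay at 11050.4 and 4787 CPM and Mir133b at 84.2 and 41.9 CPM. Mir1a-1 rested on 1 count per replicate, and Mir133a-1 had none, so its open triangles mark the 3-count limit.

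Together the 4 genes took 1.11% of the sense counts of the first pool (95% Wilson limits 1.10 and 1.12) and 0.483% of those of the second (limits 0.477 and 0.489), a mean of 0.798% ± 0.446 (SD, n = 2). Mir206 made up 99.2% of these counts in replicate 1 and 99.1% in replicate 2. The order of the levels was the same in both pools, with Mir206 first, Mir133b second and the remaining genes at or below 1 count.

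The 4 genes lie at separate loci, and they differ in how much sequence they have in common with other precursors. On GRCm38, the same assembly as mm10, the precursor of Mir206 (ENSMUSG00000065559.1) spans 20679010 to 20679082 of chromosome 1, plus strand. Mir133b (ENSMUSG00000065480.1) follows on the same strand from 20682769 to 20682887, 3686 bases downstream. Both lie within the lincRNA gene Gm28653, and a muscle long noncoding RNA, linc-MD1, is known from this locus. In the transcript Gm28653-202, Mir206 is intronic and all 119 bases of Mir133b are exonic. In the transcript Gm28653-201, 60 of the 73 bases of Mir206 and all of Mir133b are exonic.

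**Figure D2:**
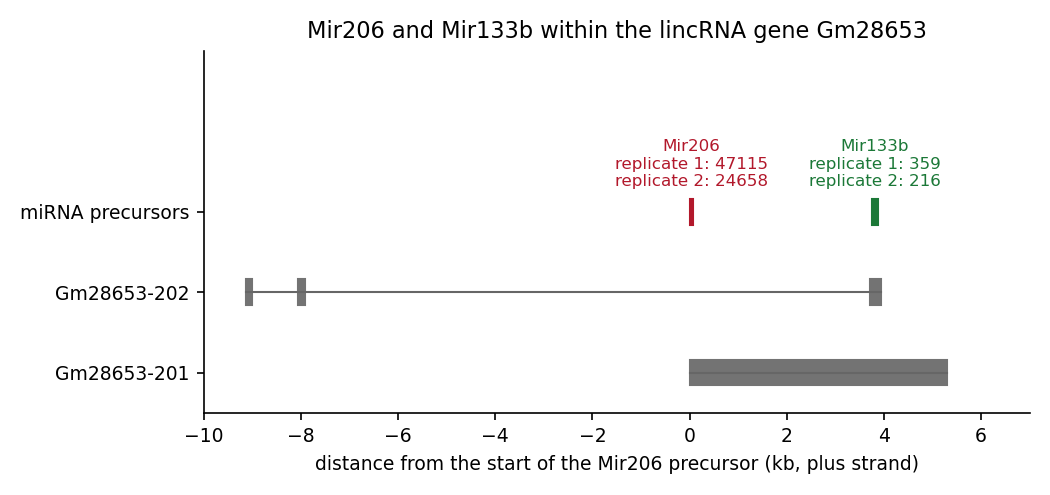
Map of the locus on the plus strand, with the distance from the start of the Mir206 precursor in kb. Grey boxes are exons of the 2 Gm28653 transcripts and coloured boxes are the miRNA precursors with their sense counts per replicate. Mir133b, 3686 bases downstream of Mir206, had 359 and 216 counts against 47115 and 24658.

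Mir1a-1 (ENSMUSG00000070144.1) spans 180389048 to 180389124 of chromosome 2, plus strand, and no other annotated gene overlaps it. Its partner Mir133a-2 lies 9254 bases downstream on the same strand. Mir133a-1 (ENSMUSG00000065399.1) spans 10782909 to 10782976 of chromosome 18, minus strand, in an intron of Mir133a-1hg and opposite an intron of Mib1. Its partner Mir1a-2 lies 2504 bases away on the same strand. The precursor of Mir206 had no stretch of 20 bases in common with any of 2200 other annotated miRNA precursors, and its longest common stretch, with Mir1a-1, was 13 bases. Mir133b had a stretch of 20 bases in common with Mir133a-1 and Mir133a-2, and the longest was 21 bases. Mir1a-1 had such stretches in common with Mir1a-2 and Mir1b, the longest being 28 bases. Mir133a-1 had them in common with Mir133a-2 and Mir133b, the longest being 31 bases. The stretches of 28 and 31 bases exceed the 22 or 23 bases of the mature arms printed above.

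Reads with several alignments entered no gene and were totalled on a line of their own. That line held 2696741 reads (29.4% of all reads) in replicate 1 and 3224256 reads (29.7%) in replicate 2, for all multi-copy RNAs together. How many of them came from miR-1a, miR-133a or miR-133b cannot be read from these tables. The values of Mir1a-1 and Mir133a-1, and of Mir133b, are therefore levels of reads that matched 1 place only, and the order of Mir206 above the miR-1a and miR-133a genes is an order of countable reads. The level of Mir206 has no such loss to another annotated precursor at 20 bases, although the multi-copy reads are missing from the library total that it is divided by.

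Mir206 stood among the abundant miRNAs of the limb, while Mir133b stood in the lower part of the detected range. Of 340 detected genes, Mir206 ranked 25 in replicate 1 and 38 in replicate 2, and Mir133b ranked 201 in replicate 1 and 229 in replicate 2. The genes next above Mir206 by mean level were Mir143, known from smooth muscle, with 9222 ± 1311 CPM, Mir652 with 8529 ± 113 CPM and Mir10b, from the HoxD cluster, with 8209 ± 81.5 CPM (SD, n = 2 each). Next below were Mir431 with 7114 ± 1548 CPM, the epithelial Mir429 with 6596 ± 649 CPM and Mir21a with 6562 ± 78.6 CPM. Each of these 6 means differed from that of Mir206 by less than the SD of Mir206, so the place of Mir206 among them is not fixed by these data. The same was true of Mir133b, whose neighbours from Mir1247 (66.2 ± 4.62 CPM) to Mir449a (57.4 ± 3.14 CPM) lay within its SD of 29.9 CPM.

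**Figure D3:**
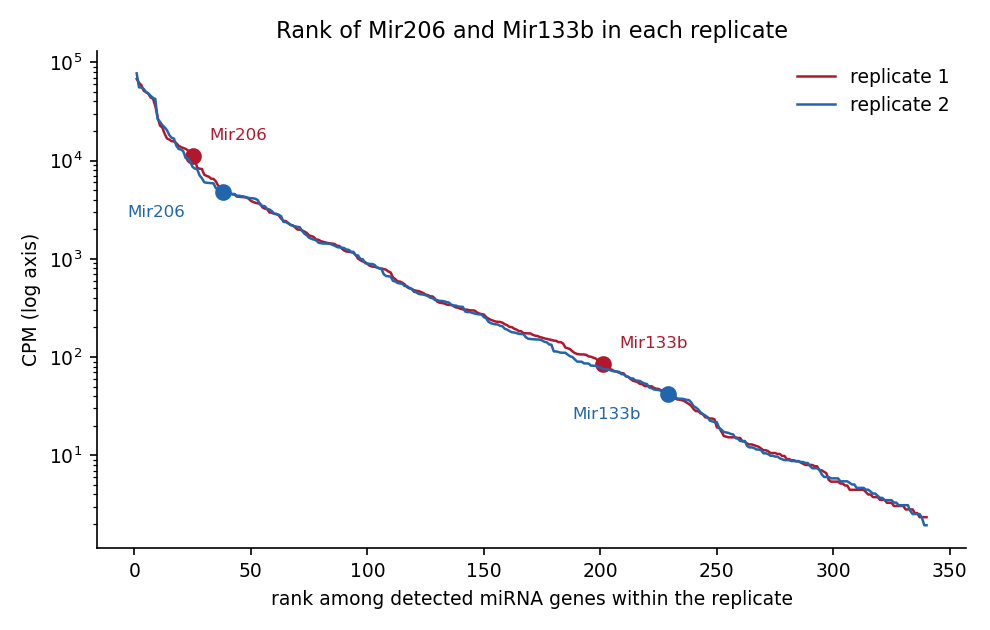
Level in CPM on a log axis against rank among the 340 detected genes, with a line per replicate and points for Mir206 and Mir133b. The lines of the replicates nearly coincide, while Mir206 lies at rank 25 in replicate 1 and 38 in replicate 2 and Mir133b at 201 and 229.

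The 2 pools differed in both countable genes, and in the same direction. Mir206 was 2.31-fold higher in replicate 1 than in replicate 2 (exact 95% interval 2.27 to 2.34), a log2 ratio of 1.21. Mir133b was 2.01-fold higher in replicate 1 (exact 95% interval 1.69 to 2.39), a log2 ratio of 1.01. An exact two-sided binomial test of each detected gene, given the library totals and adjusted by Benjamini-Hochberg over all 340, put both past the threshold of 0.05. The adjusted p was 7.31e-16 for Mir133b and too small to be represented for Mir206. This test sets 2 libraries against counting error and called 50.9% of all detected genes in either direction and 25.6% as higher in replicate 1, so passing it does not set a gene apart. A call together with a ratio over 2 in favour of replicate 1 was found for 2.06% of the detected genes, 7 in number, and Mir206 and Mir133b were 2 of these. The ratio of Mir133b was just past 2, its interval includes 2, and scaled to all reads its log2 ratio was 0.97.

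Set against the spread of all genes between the pools, Mir206 still passed and Mir133b did not. The log2 ratios of the 340 genes had a median of -0.02 and an SD of 0.38, and 95% of them lay between -0.62 and 0.88. Mir206 ranked 4 and Mir133b ranked 8 among the 340 by log2 ratio. With edgeR's exact test at the common dispersion of both libraries taken as 1 group, a biological coefficient of variation of 14.7%, 0.882% of the genes passed, 3 in number. These were Mir206 (adjusted p = 0.00897), Mir499 (adjusted p = 0.00152) and Mir208b (adjusted p = 0.00537), and all were higher in replicate 1. Mir133b had an adjusted p = 0.171 in that test. The dispersion comes from the same 2 libraries, and with 2 pools such p-values describe these pools.

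**Figure D4:**
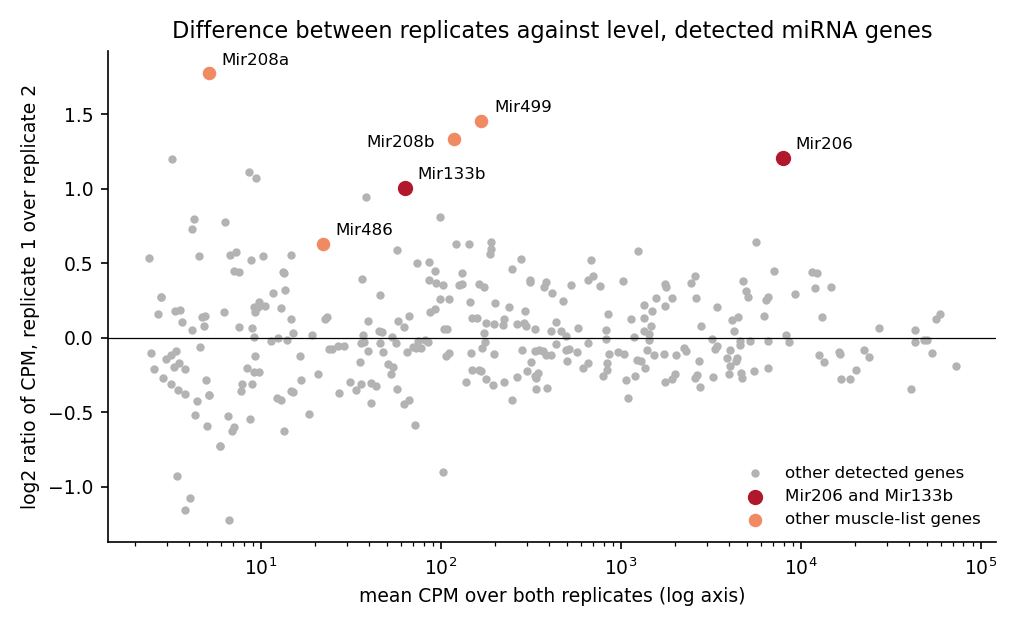
Log2 ratio of CPM, replicate 1 over replicate 2, against mean CPM on a log axis, with a point per detected gene. Mir206 and Mir133b (red) lie at 1.21 and 1.01, and the other detected genes of the muscle list (orange) lie between 0.63 and 1.78.

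Mir206 also changed its rank between the pools. Of the 50 genes with the highest mean level it shifted most, by 13 places, ahead of Mir381 and Mir541 with 12 each. Its difference of 6264 CPM between the pools was the fourth largest of the 340, after those of Mir196b (9737 CPM), Mir203 (9512 CPM) and Mirlet7i (6369 CPM). Those 3 genes have far higher levels, and their log2 ratios were -0.35, -0.19 and 0.16.

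Mir206 and Mir133b are neighbours in 1 host gene, so their proportion was compared between the pools. Mir206 had 131 counts for each count of Mir133b in replicate 1 (exact 95% interval 118 to 146) and 114 in replicate 2 (99.8 to 131). The ratio of these proportions, replicate 1 over replicate 2, was 1.15 (conditional exact 95% interval 0.966 to 1.37), and Fisher's exact test, two-sided, gave p = 0.113. A change of the proportion was thus not detectable at the 359 and 216 counts of Mir133b, and differences of up to 1.37-fold are within the interval. The proportion itself leaves out reads that Mir133b shares with the miR-133a genes.

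All detected genes of the muscle list were higher in replicate 1. Of its 12 genes, 10 had a row in the tables and 6 were detected, Mir206 and Mir133b included. All 6 were past the binomial threshold as higher in replicate 1, against 25.6% of all detected genes. In edgeR's exact test 3 of the 6 passed, Mir206 being 1 of them, against 0.882% of all detected genes. The median log2 ratio of the 6, again with Mir206 and Mir133b, was 1.27, against -0.02 for all detected genes. Mir499, in the myosin gene Myh7b, had 246 and 89.7 CPM and was 2.74-fold higher in replicate 1. Mir208b, in the slow myosin gene Myh7, had 168 and 66.8 CPM and was 2.52-fold higher. Mir486, from the Ank1 locus and known from muscle and erythroid cells, had 26.7 and 17.3 CPM and was 1.55-fold higher (exact 95% interval 1.16 to 2.07). Mir208a, known from the heart, had 34 counts in replicate 1 and 12 in replicate 2. Without Mir206 the list held 534 CPM in replicate 1 and 219 CPM in replicate 2, a 2.44-fold difference (exact 95% interval 2.27 to 2.62). Mir206 took 95.4% of the counts of the list in replicate 1 and 95.6% in replicate 2.

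Other counted genes of the miR-1 and miR-133 families stayed near 0. No row was matched to Mir1a-2 or Mir486b, so these had no count of their own. Mir1b had 3 and 4 sense counts in replicates 1 and 2, and Mir133a-2 had 0 and 1. These counts are at or near the limit of 3 counts that a 0 allows, so no ratio was drawn from them.

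By likeness of the log2 ratio, over 2 libraries, the genes nearest to Mir206 were muscle genes first only among genes with a mean of at least 100 counts. Mir133b lay at 1.01. Among the 247 genes with a mean of at least 100 counts other than Mir206 and Mir133b, Mir208b (1.33) and Mir499 (1.46) were nearest to the 1.21 of Mir206. Mir7689 (0.94), Mir668 (0.81) and Mir673 (0.64) followed, at growing distances of 0.26, 0.40 and 0.57. A single ratio between 2 pools is the whole of this likeness.

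The heart list held 1 gene, Mir208a, which is also in the muscle list. It had 7.97 and 2.33 CPM and a ratio of 3.42, replicate 1 over replicate 2 (exact 95% interval 1.73 to 7.26). In edgeR's exact test Mir208a did not pass (adjusted p = 0.171). The summed levels of the cartilage, epithelial, endothelial, smooth muscle, blood and nerve lists were closer between the pools, with the widest gap among these in the nerve list. The summed level, replicate 1 over replicate 2, was 1.04 for the 2 cartilage genes (47612 and 45564 CPM) and 0.888 for the 7 epithelial genes (96249 and 108393 CPM). It was 0.944 for the endothelial Mir126a (21698 and 22975 CPM) and 0.961 for the 5 counted genes of smooth muscle and fibroblasts (29411 and 30597 CPM). That last sum joins genes of opposite direction. Mir143 (log2 ratio 0.29) and Mir145a (0.36) passed the binomial threshold as higher in replicate 1, and Mir214 (-0.22) and Mir199a-2 (-0.16) as lower. All 7 epithelial genes and Mir126a passed it as lower in replicate 1, and both cartilage genes as higher. Blood genes gave 1.03 for the 2 erythroid genes (424 and 411 CPM) and 0.915 for the 3 counted leukocyte genes (601 and 657 CPM). The nerve list was higher in replicate 1, with 378 and 248 CPM and a ratio of 1.52. Both of its detected genes, Mir128-1 and Mir128-2, passed the binomial threshold, but neither passed edgeR's exact test. Most of the level of that list came from Mir128-1 (228 and 152 CPM) and Mir128-2 (147 and 95.1 CPM). In the nerve list 4 of 7 counted genes, Mir9-2 and the 3 genes of the miR-124 family, were at 0 in both replicates. Reads with several alignments entered no gene, so a count of 0 here covers only reads that matched 1 place. Of the leukocyte list, Mir142b had no sense count. Their part in the difference of Mir206 and Mir133b was not tested.

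**Figure D5:**
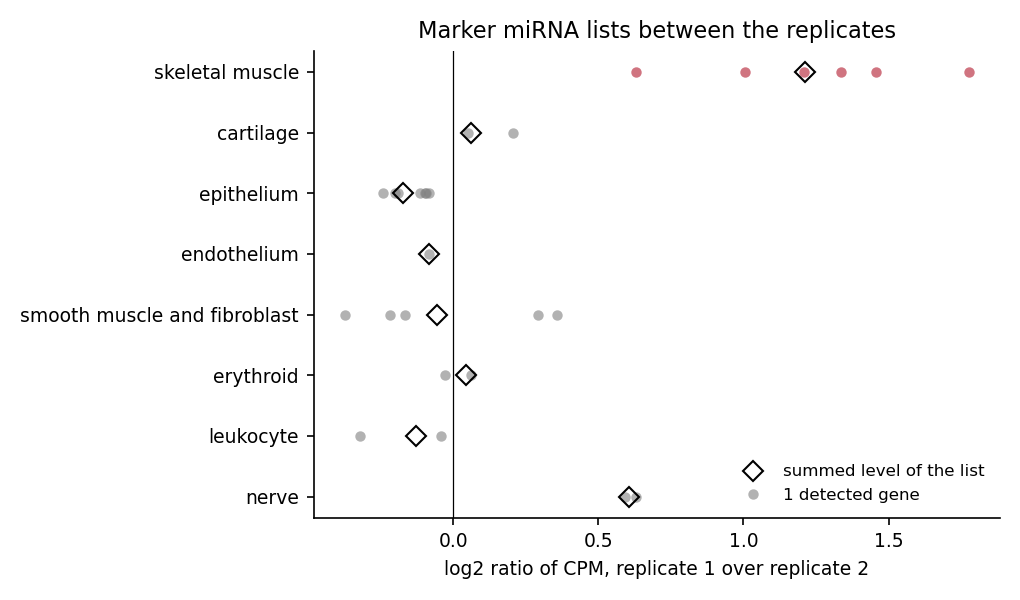
Log2 ratio of CPM, replicate 1 over replicate 2, for each list of marker miRNAs except the heart list, whose gene Mir208a is in the muscle list, with a dot per detected gene and an open diamond for the summed level. The skeletal muscle genes (red) lie between 0.63 and 1.78, and the summed ratio of the nerve list is 1.52 on the linear scale.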

How the data were processed

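Sense counts of both replicates were analysed. The authors deposited whole-number counts per miRNA gene, not normalized, on mm10 with annotation M4, per the deposited README. In each table the first count column was the sum of the other 2 in every gene row, and these were taken as both strands, sense and antisense. The aligner, counter and trimming are not given in the sources used here. Replicate 1 had 4263630 and replicate 2 had 5151214 sense counts, so 1 count is 0.235 and 0.194 CPM.

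Symbols, positions and precursors came from GENCODE M21 (GRCm38, 1894 of 1973 identifiers matched without version), and printed sequences from RefSeq (GRCm38.p6). Tests used scipy 1.17.1, edgeR 4.0.16 and DESeq2 1.42.0 (size factors only) in Python 3.11.15 and R 4.3.3, and were tested on simulated data. In the check that edgeR's exact test had to pass, changes were larger and the spread was smaller than here. That check therefore does not cover the ratios reported. With 1 group, edgeR's quasi-likelihood test could not be fitted, as 2 libraries leave no residual degrees of freedom. The edgeR exact test counts true differences into its dispersion. Detected genes had at least 10 sense counts in both replicates. Genes named beside the 4 are the muscle list, the 3 detected genes on each side by mean level, and the 5 of nearest log2 ratio with a mean of at least 100 counts. Genes named by their rank shift, CPM difference or adjusted p, or by a near log2 ratio below that minimum, were chosen after their values were seen. Members, lists and tests were chosen with earlier results of these data known.

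Alternatives were other library totals, TMM and DESeq2 scaling, both strands, other count minimums, other stretch lengths and each replicate alone.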

Additional observations from a re-analysis of the deposited data

Results flagged for a closer look

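A signal on the strand that the levels do not use was found at Mir1b. Its row had 15 antisense counts in replicate 1 and 5 in replicate 2, above the 3 counts that a 0 allows. On chromosome 18 the span of Mir1b covers all of Mir1a-2 on the opposite strand. Mir1a-2 is a partner of Mir133a-1 to which no row of its own was matched. The sense counts of Mir1b were 3 and 4. As reads with several alignments entered no gene, the antisense reads are reads that matched this place only. Whether they came from Mir1a-2 was not tested.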

How the results depend on the processing

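Directions of Mir206 and Mir133b held under every scaling tried, with log2 ratios of 1.17 to 1.23 for Mir206 and 0.97 to 1.03 for Mir133b, all past the binomial threshold. In edgeR's exact test with the common dispersion, Mir133b had a log2 ratio of 1.01 but did not pass (adjusted p = 0.171), so 1 of the 4 genes passed and 3 of all 340, against 173 in the binomial test. By construction that test adds the spread between the 2 libraries, pooled over all detected genes, to counting error. Per 1000000 of all reads, mean levels were 3700 for Mir206, 29.5 for Mir133b and 0.100 for Mir1a-1, and the 4 genes took 0.373% of the total. With multi-aligned reads added to the sense total, these were 4857, 38.7, 0.132 and 0.490%. At a stretch of 22 bases, 0 precursors shared sequence with Mir133b and 1 with Mir133a-1. The mean of Mir206 was 4787 CPM without replicate 1 and 11050.4 CPM without replicate 2, and that of Mir133b 41.9 and 84.2 CPM, and leaving out replicate 1 lowered either mean by over 1.5 times. Of the recomputed values, 57 kept their call, or moved by less than 1 SD (counts by less than 1.5 times). A further 7 moved beyond these limits and 1 became weaker. With 2 replicates, leaving out either always moves a mean by less than 1 SD, so that comparison could not fail. Because the SD of Mir206 is wide, its mean also counted as kept at 3700 per 1000000 of all reads, against 7919 CPM. No paired analysis was possible because there is 1 group. Depth limits Mir1a-1 and Mir133a-1, and the multi-aligned reads limit these and Mir133b.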
